A study of Homo sapiens with 4 samples.

Results

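The genes described here are 39 genes of the interferon response and of antigen presentation by major histocompatibility complex (MHC) class I, chosen by gene name from the 58302 genes measured. All 39 are protein-coding, and each was found once under its symbol. HepG2 cells, an established human line from a hepatocellular carcinoma and labelled wild type, were treated with 1 mM melatonin or with DMSO for 24 h or 48 h, and polyadenylated RNA was sequenced. Each of the 4 conditions has 1 library, so no difference below has a replicate check, no p-value is given, and intervals cover counting error only. All 4 cultures shared the line and its medium, the DMSO cultures are the comparison at each time, and the amount of DMSO was not given in the sources used here.

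Interferons are secreted proteins that cells release on sensing foreign RNA or DNA. They bind receptors that act through JAK kinases, STAT proteins and interferon regulatory factors (IRFs), and so switch on interferon-stimulated genes, many of whose products block viral entry, translation or budding. The same pathway raises MHC class I, a heavy chain paired with B2M that shows peptides from inside the cell to T cells after the TAP1 and TAP2 transporter and its partner TAPBP have loaded them. The liver expresses class I molecules at a basal level, and several of the genes below also have transcription that needs no interferon.

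Levels are FPKM, read counts scaled to gene length and library size, as deposited. Every value was a whole multiple of what 1 read is worth, so reads per gene could be recovered: 21616676 and 22850046 on genes with DMSO and melatonin at 24 h, and 23086025 and 22820651 at 48 h. Mitochondrial genes held 20.0% of the DMSO reads and 16.6% of the melatonin reads at 24 h, and 9.77% and 11.9% at 48 h. The 10 hepatocyte and HepG2 genes checked stood between a summed 7422 and 9393 FPKM in the 4 libraries. Among them AFP was called lower and TTR higher with melatonin at 48 h, with log2 differences of -1.28 and 2.31, and their part in the differences below was not tested. Of 10 leukocyte genes CD3E and MS4A1 had no read and LYZ alone reached high levels. Bracketed ranges are exact 95% intervals. A difference is given as a ratio of FPKM or, where log2 is named, as a log2 fold change of FPKM with 1 added, a scale that shrinks differences of weakly expressed genes. Genes with 1 FPKM or more in either library were tested, and those 2-fold apart on that log2 scale are called changed. A gene near 1 FPKM could thus be tested through the library where it was higher alone.

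Most of these genes carry the interferon-stimulated response element (ISRE), where IRF9 with its STAT partners and the other IRFs bind. RefSeq promoters of GRCh38.p14, which run from 250 bases before to 50 bases into each gene, were held for 28 of the 39. The ISRE core, GAAA followed by any 2 bases and GAAA again, was found on either strand in 20 of those 28, against 3.65% of 27305 promoters, as a description of genes that were listed for their known response. The stretches shown are those of genes to which the results below turn, written 5′ to 3′ on the strand of the gene with matches on either strand in capitals. Where capitals run on past the length of the core, matches overlap.
B2M: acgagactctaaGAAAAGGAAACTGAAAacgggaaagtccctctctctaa
TAPBP: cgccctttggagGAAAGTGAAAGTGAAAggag
IFITM3: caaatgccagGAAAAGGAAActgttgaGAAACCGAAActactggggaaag
BST2: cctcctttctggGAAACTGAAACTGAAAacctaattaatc
ISG15: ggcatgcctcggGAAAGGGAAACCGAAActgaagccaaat
ISG20: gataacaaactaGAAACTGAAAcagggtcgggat
IFI6: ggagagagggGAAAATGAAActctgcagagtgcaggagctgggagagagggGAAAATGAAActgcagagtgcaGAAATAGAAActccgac
IFIT1: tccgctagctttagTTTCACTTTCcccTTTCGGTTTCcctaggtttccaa
IFI44L: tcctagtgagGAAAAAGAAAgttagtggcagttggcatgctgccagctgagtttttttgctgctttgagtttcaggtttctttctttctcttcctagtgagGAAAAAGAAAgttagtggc

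These stretches all lie before the start of the gene. They are at chr15:44711361-44711410 for B2M, chr6:33314079-33314110 on the minus strand for TAPBP, chr11:320873-320922 on the minus strand for IFITM3, and chr19:17405733-17405772 on the minus strand for BST2. ISG15 is at chr1:1013372-1013411, ISG20 at chr15:88638935-88638968, IFI6 at chr1:27672269-27672358 on the minus strand, IFIT1 at chr10:89392493-89392542 and IFI44L at chr1:78620274-78620393. The gamma-activated site TTCNNNGAA, which STAT dimers bind, was in 7 of the 28 promoters against 7.88% of all. A TATA box, TATAAA, was in 4 against 12%, and the kappaB motif in 11 against 10.8%. Holding the core did not sort the members by level. Of the 20 with it, 13 reached 1 FPKM in some library and 7 did not, namely HLA-F, IFI27, IFI44, IFI44L, IFIT1, IFIT3 and MX1, and of the 8 without it, 7 reached 1 FPKM. APOL1, APOL2, APOL6, HLA-E, IFIT2, IFITM2, IRF2, IRF3, IRF7, OAS2 and OASL had no entry.

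Levels in the module ran from well expressed to nearly silent, with no gap at 1 FPKM. Of the 39 genes, 28 reached 1 FPKM in at least 1 library, 23 did so in every library, and 15 reached 10 FPKM in at least 1. The 11 that never reached 1 FPKM are named with their families below, and the deepest of them, IRF1, had at most 124 reads. All 12 interferon genes checked, of types I, II and III, had 0 reads in every library, which allows at most 0.222 FPKM for any of them in the library of lowest depth. In the plot of all 39 genes on a log axis, HLA-E, HLA-C, B2M, BST2, IFITM3 and APOL1 lie far to the right, and IFI44, IFI44L and OASL to the left.

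**Figure D1:**
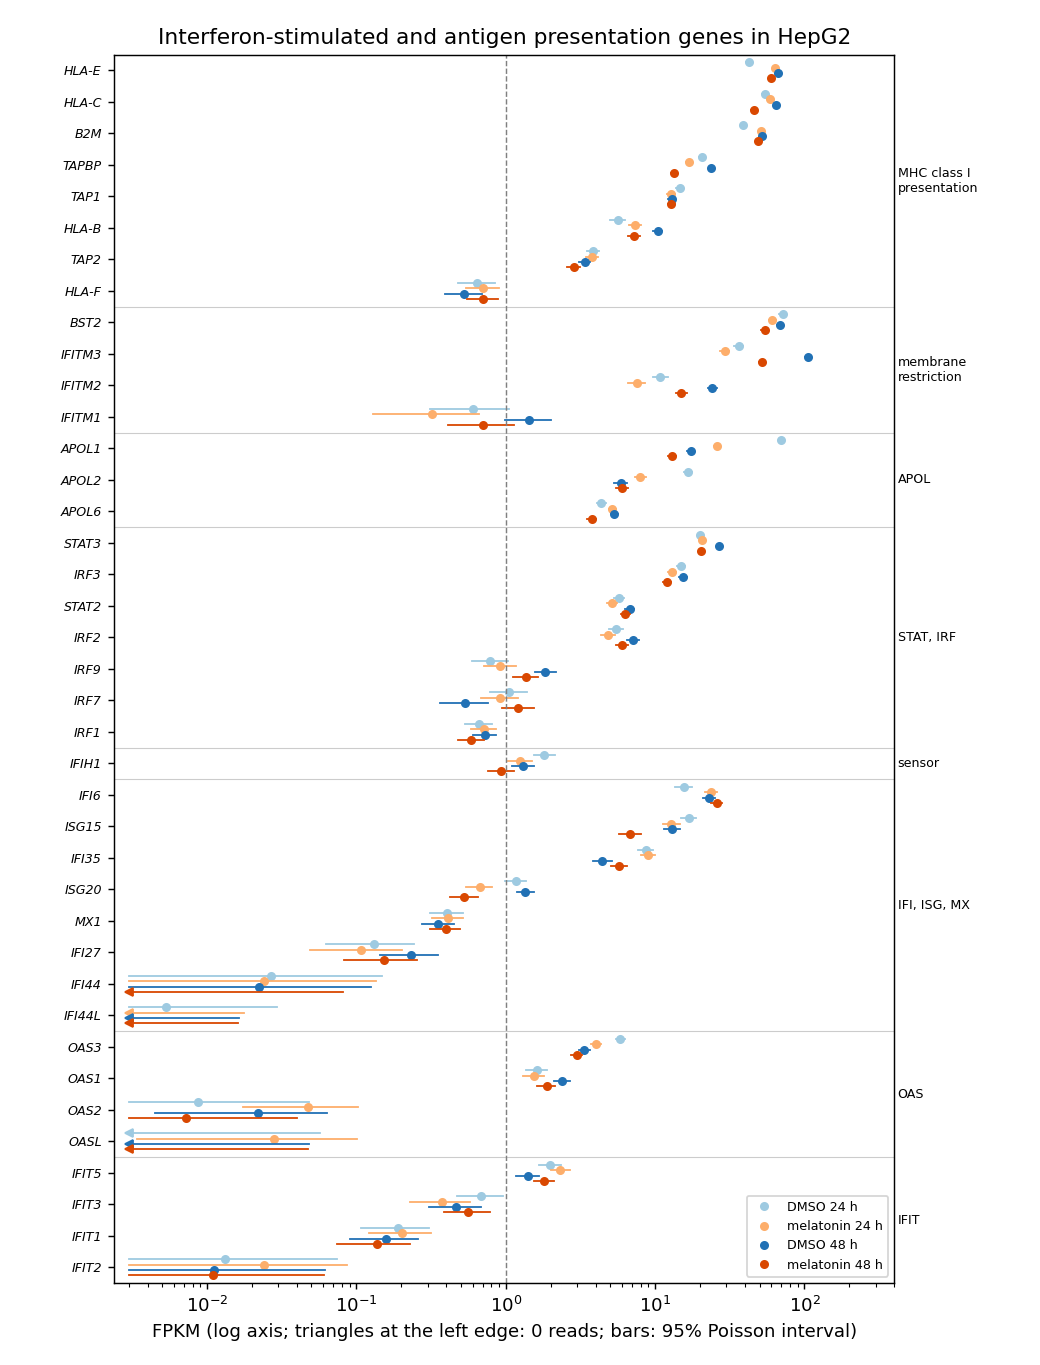
FPKM of the 39 genes (log axis) in the 4 HepG2 libraries, 1 point per library with its exact 95% Poisson interval, grouped by role, with a triangle at the left edge for 0 reads. BST2 lies between 54.0 and 71.4 FPKM while OASL has 0 reads in 3 libraries, and the DMSO and melatonin points of most genes lie close together.

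With melatonin at 24 h, 26 members were tested. None was 2-fold higher, against 1.42% of all genes tested, and 1, APOL1, was 2-fold lower, against 2.93%. Their median log2 difference was -0.14, beside 0.02 over all genes (-0.01 beside 0.19 once FPKM was rescaled to one total in every library, as TPM), with 17 below 0 and 9 above, against 46.5% and 53.5% of all genes. Counting intervals of the ratio lay below 1 for 12 members and above 1 for 6, where 22.4% and 28.2% of all genes tested did so. At 48 h, 28 were tested, with none 2-fold higher against 2.39% and 1, IFITM3, 2-fold lower against 3.32%. The median was -0.26, beside -0.02 over all genes, with 23 below 0 and 5 above, against 52.5% and 47.5%. The interval lay below 1 for 20 of the 28 (71.4%) and above 1 for 3, against 33.1% and 29.1% of all genes. Of the 20, ISG20, IFIH1 and IFITM1 passed the filter through the DMSO library alone, and ISG20 did so at 24 h as well. IRF7, among the 3, passed it through the melatonin library alone. The counts of 2-fold calls thus stand near the share of all genes, while smaller differences lay mostly on the lower side at 48 h. At 1.5-fold, 0 members were higher and 2 lower at 24 h, against 4.02% and 7.53%, and 0 were higher and 5 lower at 48 h, against 8.62% and 10%. Among protein-coding genes alone, the class of all 39 members, the 2-fold shares were smaller, 0.191% higher and 0.439% lower at 24 h and 1.03% and 1.36% at 48 h. The nearness above is thus to the share of all genes only. With 1 call at each time, a departure from the protein-coding share was not tested. In these bulk samples fewer cells expressing a gene and less RNA per cell cannot be told apart.

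**Figure D2:**
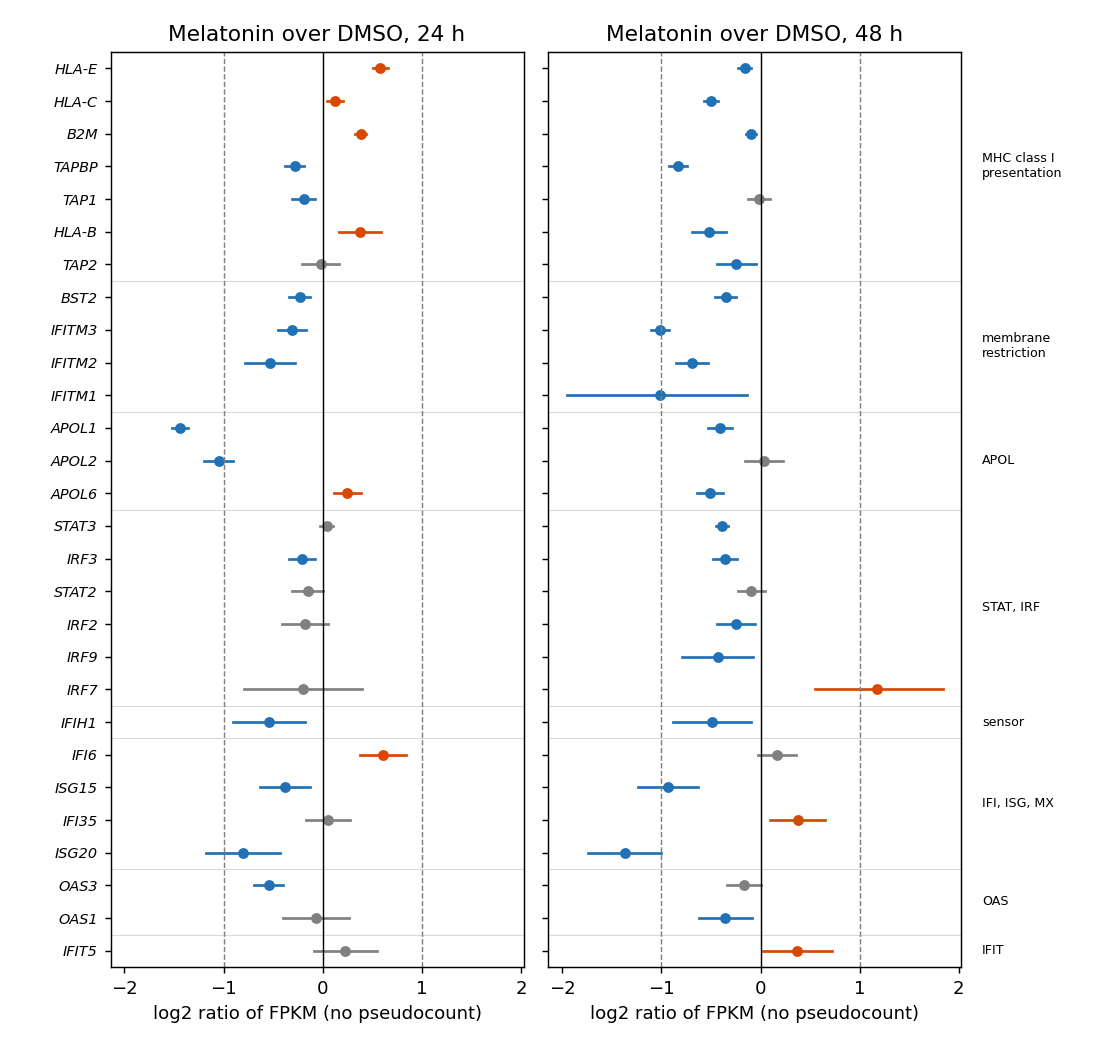
Ratio of FPKM with melatonin over DMSO (log2 axis) at 24 h and at 48 h for the genes tested, 26 and 28, with exact 95% intervals for counting error, orange above 1, blue below 1 and grey holding 1, and dashed lines at 2-fold. APOL1 lies lowest at 24 h with a ratio of 0.369, and at 48 h 20 of the intervals lie below 1.

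HLA-E, B2M, HLA-B and HLA-C, the class I chains, were higher with melatonin at 24 h and lower at 48 h. HLA-E, a heavy chain that natural killer cells read, had 42.2 FPKM with DMSO and 63.1 FPKM after melatonin for 24 h, and 66.9 and 59.9 at 48 h. The ratio was 1.49 (1.42 to 1.57) at 24 h and 0.894 (0.857 to 0.934) at 48 h. The DMSO library at 24 h was thus the low library, and in FPKM as deposited the other 3 lay close together. In TPM the log2 differences from that library were 0.75 for melatonin at 24 h and 1.16 for DMSO at 48 h. B2M, the light chain that every class I molecule needs, had the same signs. At 24 h its level was 39 FPKM (37.8 to 40.2) in the DMSO library and 50.8 (49.6 to 52.1) in the melatonin library, and at 48 h the levels were 52.2 (51 to 53.5) and 48.8 (47.6 to 50), with ratios of 1.3 (1.25 to 1.36) and 0.935 (0.903 to 0.967). Again DMSO at 24 h was the lowest library.

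HLA-B and HLA-C, classical heavy chains that present peptides to T cells, shared those directions. HLA-B had 5.62 and 7.30 FPKM with DMSO and melatonin at 24 h and 10.4 and 7.25 at 48 h. As deposited, its melatonin levels were thus nearly equal while the DMSO levels lay on either side of them. In TPM its melatonin level was higher at 48 h than at 24 h, by 0.25 on the log2 scale. Its ratios were 1.3 (1.12 to 1.5) and 0.697 (0.619 to 0.783). HLA-C had 54.3 and 59.1 FPKM at 24 h and 64.7 and 45.8 at 48 h, with ratios of 1.09 (1.03 to 1.15) and 0.707 (0.671 to 0.744). As deposited, its lowest library was melatonin at 48 h. In TPM the lowest was DMSO at 24 h, with melatonin at 24 h and DMSO at 48 h 0.30 and 0.75 above it on the log2 scale. The HLA-C difference over time with melatonin was -0.09 in TPM. HLA-B and HLA-C are near-identical in sequence and overlap in the coordinates of the files, so reads could be split between them by the counting. None of these 4 genes passed 2-fold at either time. HLA-F, a non-classical heavy chain, had 0.525 to 0.705 FPKM and was not tested.

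Of the peptide-loading genes, TAPBP and TAP1 differed from the chains at 24 h, where both were lower with melatonin in FPKM as deposited. TAPBP (tapasin), which bridges class I to the transporter, had 20.5 and 16.8 FPKM with DMSO and melatonin at 24 h and 23.8 and 13.4 at 48 h. It was lower with melatonin at both times, with ratios of 0.822 (0.770 to 0.878) and 0.563 (0.528 to 0.600), and the melatonin libraries were the 2 lowest. TAP1, a subunit of the transporter, had 14.6 and 12.8 FPKM at 24 h and 13.0 and 12.9 at 48 h, with a ratio of 0.876 (0.808 to 0.95) at 24 h and of 0.992 at 48 h. TAP2, its partner, lay between 2.85 and 3.84 FPKM, with log2 differences of -0.02 at 24 h and -0.18 at 48 h. In TPM these were 0.14 and -0.27, the signs of the chains. TAP1 overlaps PSMB9 on the other strand, and use of strand in the counting was not given in the sources used here.

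BST2 (tetherin), IFITM1, IFITM2 and IFITM3 act at membranes, where BST2 holds budding virions on the cell surface and the IFITM proteins block fusion of entering viruses. At 24 h IFITM3 had 36.2 FPKM (33.9 to 38.7) in the DMSO library and 29.2 (27.2 to 31.3) in the melatonin library, and at 48 h 105 (101 to 109) and 51.8 (49.3 to 54.5). DMSO at 48 h stood apart above the other 3. The ratio was 0.806 (0.732 to 0.888) at 24 h and 0.494 (0.465 to 0.526) at 48 h, from 3098 reads with DMSO and 1551 with melatonin. The 48 h difference of -1.002 on the log2 scale was at the 2-fold threshold, and it no longer passed it with library size taken as the plain sum of reads or after centring on the median of all genes.

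IFITM2 followed the same order of libraries, with 10.8 and 7.51 FPKM at 24 h and 24.2 and 15.0 at 48 h. Its ratios of melatonin to DMSO were 0.693 (0.582 to 0.824) and 0.619 (0.553 to 0.692). IFITM1 was far lower, with 12, 7, 34 and 17 reads in the order DMSO and melatonin at 24 h, DMSO and melatonin at 48 h, and a 48 h ratio of 0.494 (0.259 to 0.909). All 3 IFITM genes thus had their highest level with DMSO at 48 h and their lowest with melatonin at 24 h. They are related in sequence, and IFITM1 and IFITM2 overlap in the files, so their reads may not be independent of each other. BST2 had 71.4 and 60.8 FPKM at 24 h and 69.0 and 54.0 at 48 h, the highest mean of all members, and ratios of 0.851 (0.790 to 0.917) and 0.783 (0.728 to 0.842).

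The APOL genes encode apolipoproteins L, of which APOL1 is the secreted trypanolytic factor of serum and APOL2 and APOL6 stay within cells. APOL1 had 70.1 FPKM (68.1 to 72.2) with DMSO at 24 h, 25.9 (24.7 to 27.1) with melatonin at 24 h, 17.3 (16.4 to 18.3) with DMSO at 48 h and 13.1 (12.3 to 13.9) with melatonin at 48 h. DMSO at 24 h was by far the highest library, and no intervals overlapped. APOL1 fell by 1.40 on the log2 scale with melatonin at 24 h, a ratio of 0.369 (0.349 to 0.390) from 4531 and 1847 reads. At 48 h the ratio was 0.755 (0.695 to 0.819), short of 2-fold.

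APOL2 had the same order at 24 h, with 16.5 FPKM with DMSO and 7.98 with melatonin, and a ratio of 0.483 (0.436 to 0.536). Its log2 difference of -0.96 was just short of the threshold. At 48 h its levels of 5.88 and 6.01 FPKM gave a ratio of 1.02 (0.896 to 1.17). APOL6 differed from both, with 4.36 and 5.18 FPKM at 24 h and 5.34 and 3.76 at 48 h, a ratio of 1.19 (1.08 to 1.3) followed by 0.703 (0.643 to 0.768). It was higher with melatonin at 24 h and lower at 48 h, as were B2M, HLA-B, HLA-C and HLA-E.

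None of the STAT and IRF members tested was called in any comparison on the log2 scale with 1 added, in FPKM as deposited. With a pseudocount of 0.1, IRF7 was called higher at 48 h. Over time with DMSO, the log2 difference of IRF9 was 0.67, but 1.12 with a pseudocount of 0.1 and 1.28 in TPM, both called. STAT3, which relays interleukin and interferon signals, had 20.1 and 20.7 FPKM with DMSO and melatonin at 24 h and 26.7 and 20.4 at 48 h. As deposited, DMSO at 48 h alone stood higher, with a 48 h ratio of 0.766 (0.735 to 0.798). In TPM the lowest STAT3 level was with DMSO at 24 h, with melatonin at 24 h and DMSO at 48 h 0.21 and 0.90 above it on the log2 scale. STAT2, part of the ISRE-binding complex, lay between 5.16 and 6.76 FPKM. IRF3, which is activated by nucleic acid sensing, had 15.0 and 13.0 FPKM at 24 h and 15.4 and 12 at 48 h, lower with melatonin at both times by ratios of 0.865 and 0.781. It shares its locus with BCL2L12 on the other strand. IRF2, largely a repressor of ISRE genes, lay between 4.84 and 7.11 FPKM, and IRF9, the DNA-binding part of the ISRE complex, between 0.790 and 1.84. In the files IRF9 overlaps AL136295.5, a protein-coding gene on the same strand. With DMSO and melatonin at 24 h and then at 48 h, IRF9 had 55, 71, 153 and 115 reads and AL136295.5 had 55, 43, 133 and 95. Reads could thus be split between these genes by the counting.

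IRF7, the factor that amplifies interferon transcription, was the member with the largest log2 difference above 0 at 48 h. It had 1.06 and 0.919 FPKM at 24 h and 0.538 and 1.22 at 48 h, from 51, 49, 31 and 71 reads. DMSO at 48 h was the low library. The ratio at 48 h was 2.26 (1.46 to 3.57), and the log2 difference of 0.53 did not pass the threshold. IRF1, an early interferon-induced factor, stayed between 0.589 and 0.725 FPKM and was not tested. IFIH1 (MDA5), a cytosolic sensor of double-stranded RNA, had 1.82 and 1.25 FPKM at 24 h and 1.31 and 0.935 at 48 h, and its ratios were 0.689 (0.536 to 0.884) and 0.714 (0.542 to 0.938).

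ISG15, a ubiquitin-like modifier, and ISG20, an exonuclease that degrades RNA, were both lower with melatonin at each time. ISG15 had 16.8 and 12.9 FPKM at 24 h and 13.0 and 6.84 at 48 h. The melatonin library at 48 h was the low one, and the ratios were 0.768 (0.645 to 0.913) and 0.525 (0.426 to 0.645). ISG20 had 1.17 and 0.670 FPKM at 24 h and 1.36 and 0.526 at 48 h, from 158, 100, 219 and 86 reads. Its 48 h ratio of 0.388 (0.299 to 0.5) was the lowest of the members tested at that time, but at this low level the log2 difference with 1 added was -0.63 and was not called.

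IFI6, a small membrane protein, and IFI35, a leucine zipper protein, stood on the other side. IFI6 had 15.6 and 23.7 FPKM at 24 h and 23.0 and 25.9 at 48 h, with DMSO at 24 h as the low library and ratios of 1.52 (1.3 to 1.79) and 1.12 (0.986 to 1.28). Its log2 difference of 0.58 was the largest above 0 among the members at 24 h. IFI35 had 8.64 and 8.97 FPKM at 24 h and 4.44 and 5.75 at 48 h, with a 48 h ratio of 1.3 (1.07 to 1.57). MX1, a GTPase that traps viral nucleocapsids, stayed between 0.355 and 0.412 FPKM with 64 to 76 reads per library. IFI27 had 9 to 21 reads, IFI44 at most 1 read and IFI44L 1 read in all 4 libraries together, although their promoters hold the ISRE core.

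The OAS enzymes make 2′-5′ oligoadenylates that activate RNase L. OAS3 had 5.86 and 4.02 FPKM with DMSO and melatonin at 24 h and 3.37 and 3 at 48 h, with DMSO at 24 h the high library and a ratio of 0.686 (0.620 to 0.759) at 24 h. OAS1 had 1.62 and 1.54 FPKM at 24 h and 2.40 and 1.88 at 48 h, with a ratio of 0.783 (0.649 to 0.943) at 48 h. OAS2 had at most 6 reads and OASL at most 2. Of the IFIT proteins, which bind RNA without the marks of host mRNA ends, IFIT5 alone was tested, with 1.98 and 2.32 FPKM at 24 h and 1.41 and 1.82 at 48 h. IFIT3 lay between 0.373 and 0.681 FPKM, IFIT1 had 14 to 19 reads, and IFIT2 had 1 or 2. IFIT1, IFIT2 and IFIT3 overlap LIPA, which had 1994 to 3531 reads, so a share of their few reads cannot be assigned with certainty.

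The 2 times can be set side by side for the 26 members tested at both. By a rule set after the values were seen, with the ratio's interval off 1 at both times, 9 were lower with melatonin at both, namely APOL1, BST2, IFIH1, IFITM2, IFITM3, IRF3, ISG15, ISG20 and TAPBP. Another 5 were higher at 24 h and lower at 48 h, namely APOL6, B2M, HLA-B, HLA-C and HLA-E. In FPKM as deposited none was lower then higher, and none was higher at both. The remaining 12 had an interval that held 1 at one time or at both. The shares of all genes with each pattern were not counted, so whether these counts depart from the rest was not tested. ISG20 passed the filter through the DMSO library alone at both times, as did IFIH1 at 48 h. In TPM 6 genes rather than 9 were lower at both, without BST2, IFITM3, IRF3 and ISG15 and with OAS3, and IFI35 was higher at both. With plain sums of reads the 9 stayed and IFI6 was higher at both. STAT3 joined the 5 genes that were higher then lower under both scalings. The plot of 12 genes over time, chosen after their values were seen, has the DMSO and melatonin lines of HLA-B, HLA-C, HLA-E and B2M crossing between 24 h and 48 h and those of TAPBP, ISG15 and BST2 lying apart.

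**Figure D3:**
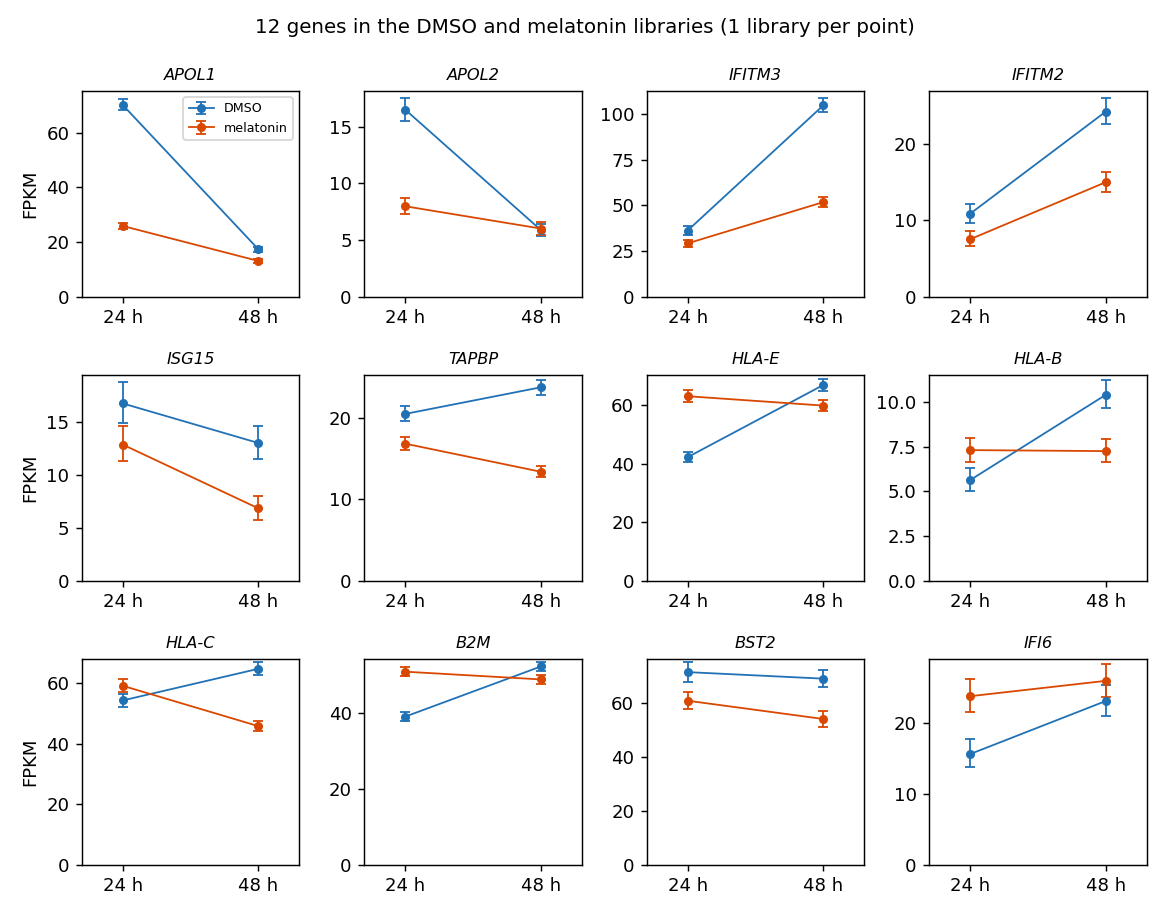
FPKM (from 0, linear axis) at 24 h and 48 h in DMSO and melatonin libraries for 12 genes, with exact 95% intervals for counting error. The lines of HLA-E and B2M cross between the times, APOL1 falls from 70.1 to 17.3 FPKM with DMSO, and IFITM3 goes from 36.2 to 105 FPKM with DMSO but from 29.2 to 51.8 with melatonin.

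Levels differed with time in the DMSO cultures as well. Between 24 h and 48 h with DMSO, 28 members were tested, of which 2, IFITM2 and IFITM3, were 2-fold higher at 48 h against 3.5% of all genes, and 2, APOL1 and APOL2, were 2-fold lower against 4.24%. IFITM3 rose 2.89-fold (2.69 to 3.12) and IFITM2 rose 2.23-fold (1.96 to 2.55). APOL1 fell to 0.247 (0.232 to 0.262) of its 24 h level and APOL2 to 0.356. The median over the 28 was 0.20, beside 0.00 over all genes, with 17 above 0 and 11 below, against 50.3% and 49.7%. Intervals lay above 1 for 15 and below 1 for 9, against 32.5% and 32.1%, and at 1.5-fold 6 were higher and 4 lower, against 11.2% and 12.6%. IFITM1 and IRF9, higher at 48 h, passed the filter through that library alone. IRF7, lower at 48 h, passed it through DMSO at 24 h alone. Of protein-coding genes 1.65% were 2-fold higher and 2.78% lower. Rescaled to TPM, 7 were called higher and 1 lower in place of 2 and 2, with APOL2 no longer among them, and the median of all genes itself moved from 0.00 to 0.47. The share of all genes called in TPM was not counted, so these 7 and 1 have no share to stand beside.

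With melatonin, 26 members were tested between the times and none was called in either direction, where 2.45% of all genes were called higher and 1.71% lower, and 0.496% and 0.429% of protein-coding genes. There were 9 above 0 and 17 below, against 45.1% and 54.9%, intervals lay above 1 for 5 and below 1 for 14, against 22.4% and 32.8%, and at 1.5-fold 2 were higher and 2 lower, against 6.76% and 6.05%. The median was -0.09, beside -0.04 over all genes. That balance turned with scaling, to 15 above 0 and 11 below in TPM and to 14 and 12 with plain sums of reads. IFITM3 had a ratio of 1.78 (1.63 to 1.94), IFITM2 of 1.99 (1.71 to 2.34) and APOL1 of 0.505 (0.467 to 0.545). In TPM IFITM2 and IFITM3 were called higher over time with melatonin as well, and with plain sums of reads IFITM2 was. The shares of all genes called under these scalings were not counted. Whether the time difference itself depended on treatment was not tested. The comparisons of time and of treatment share libraries, so that DMSO at 24 h enters both the 24 h difference of APOL1 and its difference over time.

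Levels compared between genes depend on the gene length used. The lengths in the files were a median 1.45 times those of the MANE transcript in GENCODE 44, for the 38 members that have one, and up to 6.46 times for B2M, at 6089 against 943 bases. By mean FPKM as deposited BST2 came first at 63.8, before HLA-E at 58.0, HLA-C at 56.0, IFITM3 at 55.5 and B2M at 47.7. Per length of the MANE transcript B2M came first at 308, before IFITM3 at 122, HLA-C at 91.0, BST2 at 71.3 and HLA-E at 67.8. Per that length the means of IRF1, HLA-F and MX1 were 1.48, 1.89 and 1.22. Their place among the genes below 1 FPKM, which were not tested, thus depends on the length used. The ratios between libraries do not depend on that length.

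Among 128 other genes of the pathway, 80 reached 1 FPKM in some library and 17, including the 12 interferons, had no read in any. On the log2 scale with 1 added, none of the 77 tested at 24 h and none of the 77 tested at 48 h was called in either direction. Of all genes 1.42% and 2.93% were called higher and lower at 24 h and 2.39% and 3.32% at 48 h, as given above. Their median log2 differences were 0.01 and -0.05. By list, the medians at 24 h and 48 h were 0.13 and 0.04 for receptors and JAK kinases, -0.08 and 0.05 for RNA and DNA sensing, 0.04 and -0.02 for other interferon-stimulated genes, -0.04 and -0.23 for antigen processing, 0.14 and -0.29 for other IRF genes, and 0.00 at both times for feedback regulators. The plot of these lists has every point inside the 2-fold lines for the 2 melatonin comparisons, apart from APOL1 at 24 h and IFITM3 at 48 h among the members.

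**Figure D4:**
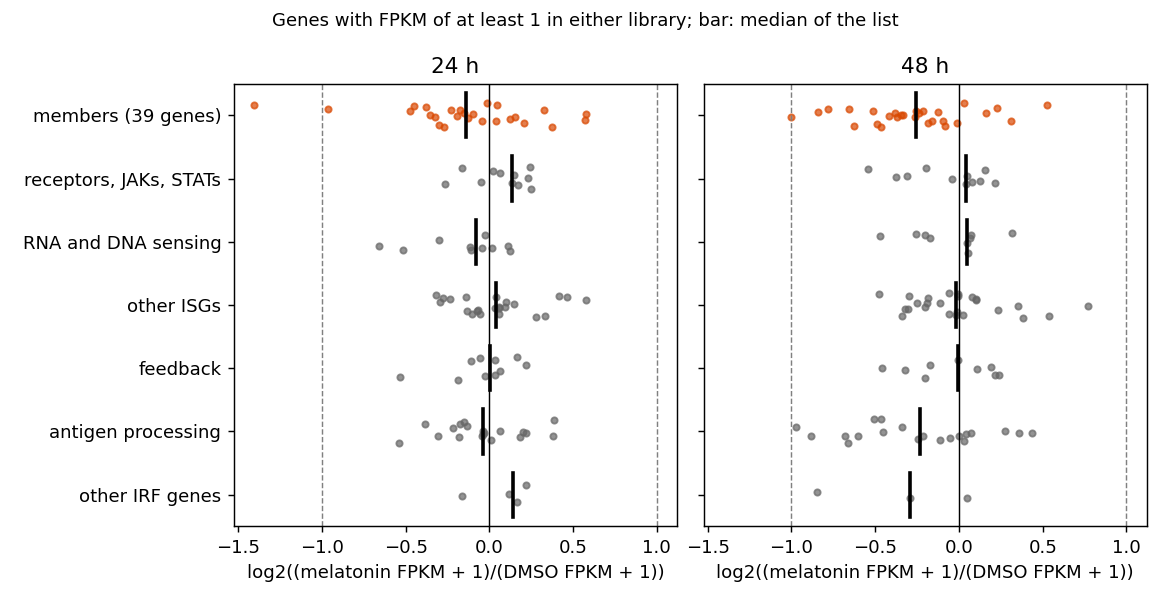
Log2 difference of FPKM + 1, melatonin over DMSO, at 24 h and at 48 h for members and for the other pathway lists, 1 point per gene tested, with dashed lines at 2-fold and a bar at the median of each list. The median of the members is -0.14 at 24 h and -0.26 at 48 h, and that of the 77 other pathway genes tested at each time is 0.01 and -0.05.

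The most expressed gene of each list was named by rule. IFNGR1, a chain of the interferon gamma receptor, had 34.3 and 40.8 FPKM with DMSO and melatonin at 24 h and 58.9 and 40.1 at 48 h, so DMSO at 48 h stood above the rest, as for IFITM3 and STAT3. MAVS, the mitochondrial adaptor of RNA sensing, had 35.7, 38.7, 28.5 and 35.8 FPKM in the same order. LGALS3BP, a secreted glycoprotein, had 233, 222, 217 and 176. IRF2BP2, a partner of IRF2, had 33.4, 36.4, 55.6 and 45.3, and PTPN11, a phosphatase of the JAK pathway, 29.2, 34.2, 25.1 and 27.0. CALR (calreticulin), a chaperone that folds class I heavy chains, had 707 and 635 FPKM at 24 h and 848 and 535 at 48 h.

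Others were named after their values were seen. CD74, the MHC class II invariant chain, had 36.3, 35.3, 43.6 and 21.7 FPKM, with a log2 difference of -0.97 at 48 h, and the melatonin library at 48 h was the low one. PDIA3, which works with TAPBP in peptide loading, had 136, 132, 234 and 127 FPKM and a difference of -0.88 at 48 h, with DMSO at 48 h standing above the other 3. LY6E, a membrane protein that limits coronavirus entry, was the other way, with 26.3 and 39.6 FPKM at 24 h and 16.6 and 29.1 at 48 h and differences of 0.57 and 0.77. Over the whole antigen processing list, 20 genes were tested at 48 h. Intervals of the ratio lay below 1 for 11 (55%) and above 1 for 4 (20%), against 33.1% and 29.1% of all genes. At 24 h 19 were tested, with 7 (36.8%) below 1 and 4 (21.1%) above, against 22.4% and 28.2% of all genes.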

How the data were processed

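Members and gene lists were chosen with earlier results of these data known. The authors deposited 1 table of FPKM per library. The submitters' notes name Bowtie2 2.0.6, TopHat2 2.0.9, Cufflinks 2.1.1 and Cuffdiff 2.1.1, the study's methods name MapSplice for alignment, and which made the tables was not given in the sources used here. Reads were recovered as FPKM × gene length divided by the step of 1 read in each library, and 100% of nonzero values were whole within 0.05 reads. The library size this implies was 0.849 to 0.973 times the reads on genes, differed between libraries, and how it was set was not given in the sources used here. The lowest depth gives a floor of 3 reads at 0.163 FPKM for a 1 kb gene.

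Differences were log2((A + 1)/(B + 1)) of FPKM, for genes with at least 1 FPKM in either library, called at 2-fold. Levels have exact Poisson intervals and ratios exact conditional binomial (Clopper-Pearson) intervals, both 95%. With 1 library per condition no test between conditions was made. Python 3.11, pandas 2.3.3 and scipy 1.17.1 were used, and the steps were tested on simulated data.

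Named with all 4 values were members called in any comparison, the highest mean of each of 8 role groups, and the 5 largest differences in each direction with melatonin at each time. Others were named after their values were seen where the text says so or as examples. Of the other pathway lists, the highest mean of each was named. Alternatives were pseudocount 0.1, no filter, 5 FPKM, TPM, plain sums of reads, centring and 1.5-fold. Those for the pathway lists, and protein-coding genes as the background, were added after seeing the data. Coordinates of promoters are from RefSeq GRCh38.p14. Of the 39 members 5 had the same start and end in GENCODE 44, and no coordinates of the files are printed.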

Additional observations from a re-analysis of the deposited data

Results flagged for a closer look

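In 5 genes the log2 difference of FPKM + 1 between melatonin and DMSO had opposite signs at 24 h and 48 h, with the counting interval of the ratio off 1 at both times. The difference of the differences, 48 h less 24 h, was -0.79 for HLA-B (0.33 then -0.47), -0.73 for HLA-E (0.57 then -0.16) and -0.62 for APOL6 (0.21 then -0.42). It was -0.61 for HLA-C (0.12 then -0.49) and -0.47 for B2M (0.37 then -0.10). With 1 library per condition these differences between times were not tested. The share of all genes with such opposite signs was not counted. In all 5 genes the DMSO level was higher at 48 h than at 24 h.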

How the results depend on the processing

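With 1 library per condition no replicate could be left out. No paired analysis was possible because each condition has 1 library and the labels give no replicate numbers. No call changed direction, but the members' median over time with melatonin, -0.09, was above 0 in TPM and with plain sums of reads. Over the alternatives the members' median melatonin difference lay between -0.18 and -0.01 (24 h) and between -0.40 and -0.13 (48 h). At 24 h APOL1 stayed called under all 7 alternatives. With a pseudocount of 0.1, 2 members were lower at 24 h (APOL1, APOL2), 1 was higher (IRF7) and 2 lower (IFITM3, ISG20) at 48 h, and 4 were higher over time with DMSO. Among the other pathway genes it gave 1 lower at 48 h, 1 higher and 3 lower over time with DMSO, and 1 lower over time with melatonin. Without a filter the members' median over time with DMSO was 0.01868. In TPM 2 were lower at 48 h (IFITM3, ISG20), 7 higher and 1 lower over time with DMSO (median 0.7013), and 2 higher over time with melatonin (median 0.1793), and of the other pathway genes 1 was lower at 48 h and 6 were higher over time with DMSO. TPM moved the median of all genes from 0.02 to 0.19 at 24 h and from 0.00 to 0.47 over time with DMSO, and changed the sign of 3 of 26 members at 24 h (OAS1, STAT2, TAP2), of 1 of 28 at 48 h (APOL2), and of 6 of 28 over time with DMSO and 6 of 26 over time with melatonin. With plain sums of reads 0 members were lower at 48 h, 1 was higher over time with melatonin, the medians over time were 0.3477 with DMSO and 0.03757 with melatonin, and 1 other pathway gene was higher over time with DMSO. After centring 0 members were lower at 48 h. At 1.5-fold 2 members were lower at 24 h and 5 at 48 h (IFITM2, IFITM3, ISG15, ISG20, TAPBP), 6 were higher and 4 lower over time with DMSO, and 2 and 2 with melatonin. For the other pathway genes this gave 1 lower at 24 h, 1 higher and 6 lower at 48 h, 5 and 4 over time with DMSO, and 1 and 3 with melatonin. Shares of all genes called were counted only in the main setting and at 1.5-fold, so counts under the other alternatives have no such share beside them. The causes were not tested. Depth limits the 11 genes under 1 FPKM, which had at most 124 reads.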

Other observations

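Differences between times were larger with DMSO than with melatonin. Of the 25 members tested in all 4 comparisons, 17 (68%) had a larger absolute log2 difference between 48 h and 24 h with DMSO than with melatonin, with medians of 0.38 and 0.25. Over all 12378 genes tested in every comparison the share was 63.8%, with medians of 0.29 and 0.20, so the members stood near the rest. The differences between melatonin and DMSO were larger at 48 h than at 24 h for 16 of the 25 members (64%) and for 61.7% of all genes.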
